A study of Mus musculus with 12 samples.

Results

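Gfap, Aldh1l1, Mag and Ugt8a, chosen by name as marker genes of astrocytes and oligodendrocytes, were followed through the expression tables of neural progenitor cells (NPC) and mouse embryonic fibroblasts (MEF) after Prmt5 deletion. All 4 genes are among the 2415 gene names listed as changed in NPC, and 0 of the 4 are among the 111 listed in MEF. Of all protein-coding gene names 9.71% are listed in NPC and 0.47% in MEF. The 4 genes were chosen with earlier results of these data known, so their being listed in NPC is not a result. The 4 groups are NPC with 4-hydroxytamoxifen (4-OHT), NPC with ethanol, MEF with 4-OHT and MEF with ethanol, with 3 libraries each. All cells came from embryos at E14.5 of the genotype Prmt5 F/FER on a mixed C57BL/6 X 129S1/SvlmJ background, so the controls carried the same alleles, and the labels do not say what drives the recombination. NPC were cortical neurospheres grown with EGF and FGF, both at 20 ng/ml, and treated at day 4, and MEF were used at passage 1. The treated cells received 50 nM 4-OHT for 24 h before they were split, and the controls received the same volume of ethanol. No library is labelled as 4-OHT in cells of another genotype, so the agent and the loss of Prmt5 cannot be told apart. The interval between splitting and RNA extraction is not given in the sources used here.

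Astrocytes and oligodendrocytes arise from neural progenitors of the cortex after neurons have been made. Gfap encodes the intermediate filament of astrocytes, and Aldh1l1 encodes a folate enzyme, 10-formyltetrahydrofolate dehydrogenase, that marks astrocytes broadly and is also present in radial glia. Mag encodes myelin-associated glycoprotein, a sialic acid-binding adhesion protein on the inner face of the myelin sheath. Ugt8a encodes the transferase that joins galactose to ceramide, the first step toward the galactolipids of myelin. JAK-STAT and bone morphogenetic protein signals are known to promote Gfap expression in progenitors, while Sox10 and its targets drive the myelin genes.

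The start regions of the 4 genes differ in base composition and are printed to show it. Ugt8a has the window richest in CG among the 4. Whether CG content goes with the direction of change was not tested. Each window runs from 250 bases before to 50 bases after a RefSeq transcript start in GRCm38.p6, and was matched by gene symbol. Lower case is used throughout, except that capitals mark each CG dinucleotide.
Gfap, chr11:102897151-102897450, minus strand: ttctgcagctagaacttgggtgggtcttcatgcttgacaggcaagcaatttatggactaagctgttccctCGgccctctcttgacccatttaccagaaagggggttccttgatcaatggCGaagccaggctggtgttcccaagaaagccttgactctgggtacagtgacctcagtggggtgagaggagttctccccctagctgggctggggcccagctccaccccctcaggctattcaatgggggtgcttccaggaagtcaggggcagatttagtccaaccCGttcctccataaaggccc
Aldh1l1, chr6:90550543-90550842, plus strand: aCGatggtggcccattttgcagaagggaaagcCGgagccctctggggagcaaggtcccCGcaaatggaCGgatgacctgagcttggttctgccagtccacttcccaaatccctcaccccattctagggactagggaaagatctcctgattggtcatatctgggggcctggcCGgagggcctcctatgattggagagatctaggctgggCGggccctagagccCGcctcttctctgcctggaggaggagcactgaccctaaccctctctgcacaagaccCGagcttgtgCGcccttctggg
Mag, chr7:30914814-30915113, minus strand: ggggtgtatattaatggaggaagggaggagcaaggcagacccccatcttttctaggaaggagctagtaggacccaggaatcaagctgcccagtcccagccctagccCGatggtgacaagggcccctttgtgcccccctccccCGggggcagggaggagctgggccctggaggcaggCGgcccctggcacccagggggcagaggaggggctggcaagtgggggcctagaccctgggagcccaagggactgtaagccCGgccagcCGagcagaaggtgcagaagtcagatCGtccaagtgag
Ugt8a, chr3:125938603-125938902, minus strand: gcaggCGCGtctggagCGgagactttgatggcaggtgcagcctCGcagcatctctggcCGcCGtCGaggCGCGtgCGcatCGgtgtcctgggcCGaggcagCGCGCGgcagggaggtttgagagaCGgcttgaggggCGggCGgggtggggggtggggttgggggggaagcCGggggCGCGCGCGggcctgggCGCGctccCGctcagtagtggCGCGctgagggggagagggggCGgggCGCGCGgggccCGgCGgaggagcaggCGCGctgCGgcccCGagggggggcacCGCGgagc

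The window of Ugt8a holds 40 CG dinucleotides, more than 96.1% of the 32851 windows in the RefSeq table, whose median is 7. By the same count Aldh1l1 holds 9, Mag holds 6 and Gfap holds 3. Mag has 3 start windows in the table, of which the first is shown, and the other two hold 3 CG dinucleotides each. The STAT motif TTCNNNGAA, which reads the same on both strands, occurs once in the Gfap window and once in each Mag window, against 8.30% of all windows with at least 1 match. It was not found in the windows of Aldh1l1 and Ugt8a. The E-box CANNTG, also the same on both strands, occurs in the windows of Aldh1l1, Mag and Ugt8a and in 72.3% of all windows. The letters TTGGCA of a nuclear factor I site, ACAATG of a SOX site and TATAAA of a TATA box, each searched on both strands, match none of the 4 windows shown, against 14.1%, 12.6% and 13.6% of all windows. A match in such a window is a description of its letters and was not tied to binding.

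The deposited expression tables give 1 RPKM value (reads scaled to transcript length and to the mapped reads of the library) for each arm, so the 3 libraries of a group share a value and no replicate spread can be given. Prmt5, the gene deleted here, stood at 4.92 RPKM with 4-OHT and 33.4 RPKM with ethanol in NPC, and at 3.76 and 21.0 RPKM in the same order in MEF, as the authors' values. Genes are listed with an unadjusted Cuffdiff p under 0.05 and a change beyond 1.5-fold. Of the 2416 rows of the NPC table, 56.6% are higher with 4-OHT and 43.4% are lower. A gene is said here to have risen or fallen when an upper bound of its Benjamini-Hochberg adjusted p, with each of the 55341 annotated gene names taken as a test, was under 0.05. That held for 73.8% of the NPC rows and for the 4 genes alike, so passing is common among listed genes. The tables hold changed genes alone, so the identity of the cultures could not be checked on progenitor markers: of 22 such markers, among them Sox2, Pax6 and Nes, the NPC table lists Hes5 alone.

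Among the 4 genes, Gfap, Aldh1l1 and Mag rose in NPC and Ugt8a fell. Aldh1l1 stood at 118 RPKM with 4-OHT and 67.7 RPKM with ethanol, as the authors' values. Gfap had 1.10 RPKM with 4-OHT and 0.221 RPKM with ethanol. Mag had 0.919 RPKM with 4-OHT and 0.180 RPKM with ethanol. These 3 genes were higher with 4-OHT, and the galactolipid enzyme gene was the exception. Ugt8a had 1.98 RPKM with 4-OHT and 3.02 RPKM with ethanol. Thus the astrocyte enzyme was abundant in both arms, Gfap and Mag were near or under 1 RPKM in both, and Ugt8a lay between. Fewer cells with a transcript and less transcript per cell cannot be told apart in these bulk libraries.

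**Figure D1:**
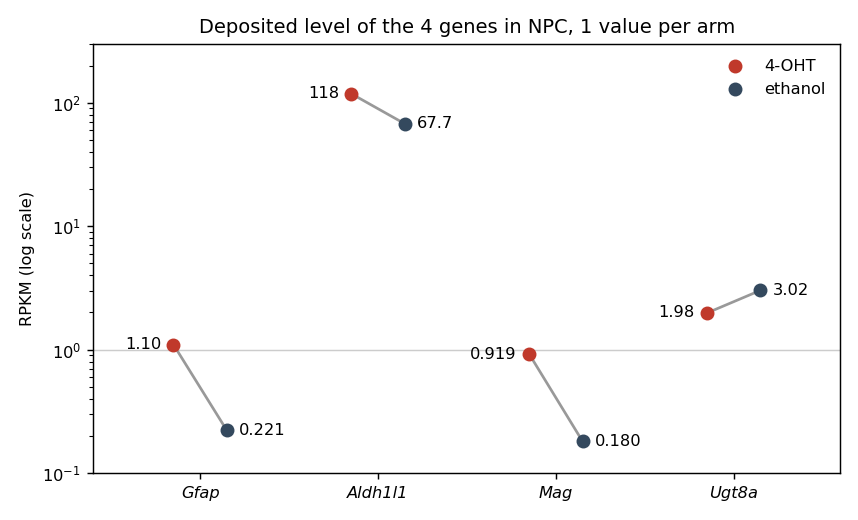
RPKM of Gfap, Aldh1l1, Mag and Ugt8a in NPC on a log axis, with 1 deposited value for each arm, 4-OHT left and ethanol right, and no error bars because libraries share a value. Aldh1l1 stands far above the other genes in both arms, and Ugt8a alone is lower with 4-OHT.

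In relative terms Mag and Gfap changed most. The authors' deposited table gives Mag a log2 fold change of 2.35 (Cuffdiff p = 1.44e-11, Benjamini-Hochberg bound 3.27e-09), a 5.10-fold rise. Gfap follows in the authors' deposited table with 2.31 (Cuffdiff p = 9.62e-09, bound 1.09e-06), a 4.96-fold rise. The authors' deposited table puts Aldh1l1 at 0.81 on the log2 scale (Cuffdiff p = 2.75e-08, bound 2.78e-06), or 1.75-fold. The rise of the folate enzyme gene was thus smaller, although its p lay close to that of Gfap. For Ugt8a the authors' deposited table gives -0.61 (Cuffdiff p = 0.00123, bound 0.0391), so that ethanol was 1.52-fold above 4-OHT, just past the limit of the listing. With a Bonferroni correction over the same 55341 names, Ugt8a no longer passed, while the other genes did.

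The errors that the Cuffdiff p-values imply differ with level. Under a normal distribution the standard error of the log2 fold change is 0.15 for Aldh1l1, 0.19 for Ugt8a, 0.35 for Mag and 0.40 for Gfap. The derived 95% intervals of the fold change are 1.44 to 2.13 for Aldh1l1, 3.18 to 8.18 for Mag and 2.87 to 8.57 for Gfap. The intervals of Mag and Gfap overlap almost wholly, and neither overlaps that of Aldh1l1. For Ugt8a the ratio of 4-OHT to ethanol has an interval of 0.508 to 0.847. The genes were measured in the same libraries, so these intervals are not independent of each other.

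In absolute terms the order of the 3 higher genes was reversed. Aldh1l1 gained 50.8 RPKM, the gain of rank 20 among the 1367 higher rows of the NPC table, although its log2 fold change ranks 931 there. Gfap gained 0.876 RPKM and Mag 0.739 RPKM, ranks 704 and 739 by gain, while their log2 fold changes rank 97 and 92. Ugt8a lost 1.04 RPKM, which is more than either of these gains. Its log2 fold change ranks 973 in size among the 1049 lower rows. The level of Aldh1l1 was 108 times that of Gfap with 4-OHT and 306 times with ethanol, both as RPKM ratios. Between Gfap and Mag the ratio of levels was 1.19 with 4-OHT and 1.23 with ethanol. Ugt8a was at 2.15 times the level of Mag with 4-OHT and at 16.7 times with ethanol.

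**Figure D2:**
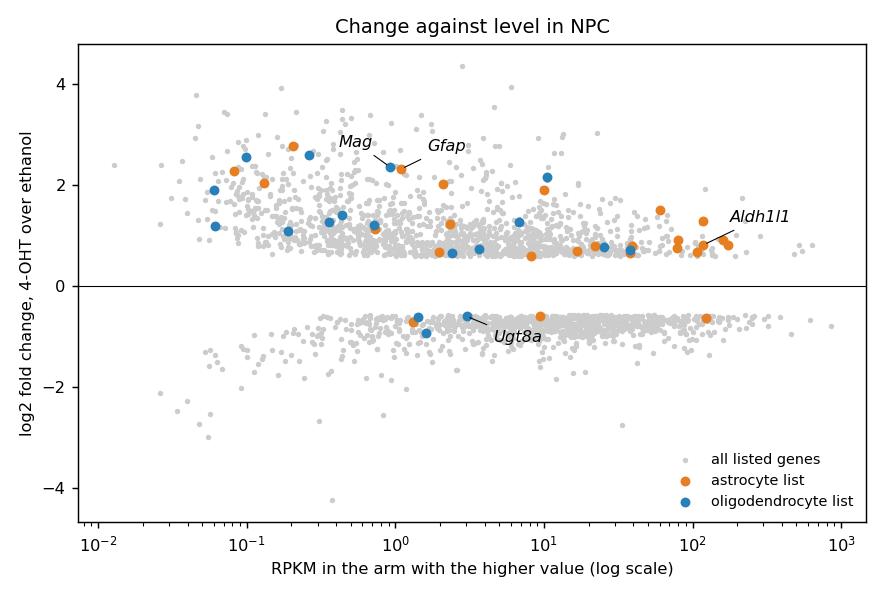
Log2 fold change of 4-OHT over ethanol (y axis) against RPKM in the arm with the higher value (x axis, log scale) for genes listed in NPC, with the astrocyte and oligodendrocyte lists in colour. Gfap and Mag sit at high fold and low level, Aldh1l1 at low fold and high level, and Ugt8a close to the inner edge of the lower genes. The empty band around 0 is the limit of the listing.

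Each change was then set beside listed genes of like level, defined as those within 2-fold of the gene's higher RPKM. Around Gfap there are 437 such genes, of which 70.9% are higher, and 14 of these 310 changed more than Gfap in the authors' deposited table. Around Mag there are 438, of which 72.4% are higher, and 17 of these 317 changed more. Gfap and Mag thus lie near the upper end of genes of their level, whose median log2 fold changes among higher genes are 0.99 and 1.02. Around Aldh1l1 the direction is the less common one: 32.1% of 140 genes are higher, with a median of 0.80 among those 45, which is close to the value of Aldh1l1 itself. Around Ugt8a 60.0% of 530 genes are higher, and 197 of the 212 lower ones fell by a larger factor than Ugt8a.

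The genes nearest to each member in the log2 RPKM of both arms were taken as those with the most similar pattern, over the 2 arms of NPC. Nearest to Gfap were Pdk4, a pyruvate dehydrogenase kinase gene, Thbs2, a thrombospondin gene, and 9930013L23Rik, at distances of 0.17, 0.22 and 0.25 log2 units. Nearest to Mag were Fbln5, an elastic fibre gene, Alox5, a lipoxygenase gene, and again Thbs2, at 0.07, 0.11 and 0.18. Aldh1l1 was closest to Gpi1 of glycolysis at 0.07, to the astrocyte membrane protein gene Mlc1 at 0.14 and to the epoxide hydrolase gene Ephx1 at 0.15. Fam57b, the DNA glycosylase gene Mbd4 and the sodium-proton exchanger gene Slc9a5 were closest to Ugt8a, at 0.01, 0.02 and 0.05.

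Most of the astrocyte markers that are listed in NPC are higher with 4-OHT. Of 50 astrocyte markers 25 are listed in NPC, 22 higher and 3 lower, and 22 of the 25 have a bound under 0.05. Of all listed NPC rows 56.6% are higher and 73.8% have such a bound. The median log2 fold change of the 25 markers is 0.81, against 0.66 over all listed NPC genes. Both medians are taken over higher and lower genes together, and the smallest listed change is 0.585 in size. They thus depend on the share of higher genes and do not compare the size of the changes. Together with the oligodendrocyte list, 43 of 100 markers are listed and 37 of the 43 are higher. In comparison 9.71% of the 21924 protein-coding gene names of the annotation are listed in NPC, but the number of genes that Cuffdiff tested is not given, so the 2 shares do not have like denominators. The markers not listed include Slc1a3, Gja1, S100b, Glul, Aldoc and Sox9, whose levels and changes are unknown here. Several astrocyte markers are also made by radial glia and neural progenitors.

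Several of the listed astrocyte markers encode secreted proteins, act in secretion or, as F3, initiate coagulation. The authors' values for Apoe, the main apolipoprotein of astrocytes, were 60.0 RPKM with 4-OHT and 21.2 RPKM with ethanol. The chaperone-like apolipoprotein gene Clu rose too, with 9.96 RPKM under 4-OHT and 2.69 RPKM under ethanol. Sparcl1, a secreted synapse-promoting protein gene, was at 118 RPKM with 4-OHT and 48.9 RPKM with ethanol. Angiotensinogen, Agt, rose at low level, with 2.11 RPKM under 4-OHT against 0.525 RPKM under ethanol. In the authors' deposited table Cpe, a carboxypeptidase gene of peptide hormone maturation, has a log2 change of 0.81 and the coagulation initiator gene F3 one of 0.60. In level these genes run from Agt, above Gfap in both arms, to Cpe, above Aldh1l1 in both arms.

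Other listed astrocyte markers encode channels, transporters, pumps and receptors. The water channel gene Aqp4 was at 2.32 RPKM with 4-OHT and 1.00 RPKM with ethanol. Mlc1 had 107 RPKM with 4-OHT and 67.6 RPKM with ethanol, close to Aldh1l1 in both arms. The glutamate transporter gene Slc1a2, the bicarbonate transporter gene Slc4a4 and the sodium pump subunit gene Atp1b2 rose by 0.70, 0.79 and 0.74 on the log2 scale, per the authors' deposited table. The endothelin receptor gene Ednrb had 161 RPKM with 4-OHT and 86.0 RPKM with ethanol. Markers of metabolism had changes of 0.91 for the mitochondrial glutamate carrier Slc25a18, 0.65 for cystathionine synthase Cbs, 0.78 for Ndrg2 and 1.13 for the thyroid hormone deiodinase Dio2 on the log2 scale, per the authors' deposited table. Cyp4f14 and Atp13a4 also rose, to 0.204 and 0.131 RPKM with 4-OHT, against 0.0302 and 0.0320 RPKM with ethanol.

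Exceptions among astrocyte markers were few. Bcan, a proteoglycan of the neural matrix, fell to 78.3 RPKM with 4-OHT, against 122 RPKM with ethanol. The bone morphogenetic protein antagonist gene Chrdl1 fell as well, with 6.24 RPKM under 4-OHT and 9.43 RPKM under ethanol. Listed without passing the bound were the proline dehydrogenase gene Prodh, at 0.802 RPKM with 4-OHT and 1.32 RPKM with ethanol, Fgfbp3, at 1.96 and 1.24 RPKM, and the connexin gene Gjb6, at 0.0821 and 0.0170 RPKM.

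The oligodendrocyte list showed the split that separates Mag from Ugt8a. Of 50 markers 18 are listed in NPC, 15 higher and 3 lower, with 13 under the bound and a median log2 fold change of 1.19. Of protein-coding names 9.71% are listed, and of all listed rows 56.6% are higher. The bound is passed by 73.8% of all listed rows, so 13 of 18 is near that share. Levels were lower than in the astrocyte list, with a median of 1.17 RPKM in the higher arm against 16.6 RPKM. Of the 18 markers 9 did not reach 1 RPKM in either arm, a level at which 80.3% of all listed genes are higher. Mbp, which encodes a main protein of compact myelin, rose with Mag and had 10.4 RPKM with 4-OHT and 2.35 RPKM with ethanol. Mal, a myelin lipid raft protein gene, had 0.265 RPKM with 4-OHT and 0.0440 RPKM with ethanol. Sox10, the transcription factor of the lineage, rose to 3.68 RPKM with 4-OHT, against 2.22 RPKM with ethanol. The lineage genes Olig1, Olig2, Pdgfra and Cspg4 and the myelin genes Mog, Cnp and Mobp are not listed.

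Other members of the list rose with it. Trf, which encodes transferrin, had 25.4 RPKM with 4-OHT and 15.0 RPKM with ethanol, and Plekhb1 had 38.1 and 23.2 RPKM in the same order. The choline phosphodiesterase gene Enpp6, the aspartoacylase gene Aspa, Tmem88b and the node adhesion gene Nfasc rose by 1.40, 1.19, 1.26 and 0.64 on the log2 scale, per the authors' deposited table. Fa2h, Ermn and Neu4 are listed as higher at under 0.2 RPKM in both arms and did not pass the bound. The tetraspanin gene Tspan2 fell with Ugt8a, with 0.838 RPKM under 4-OHT and 1.61 RPKM under ethanol. Cdkn1c, a cyclin-dependent kinase inhibitor gene, was at 0.922 RPKM with 4-OHT and 1.42 RPKM with ethanol and did not pass the bound.

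**Figure D3:**
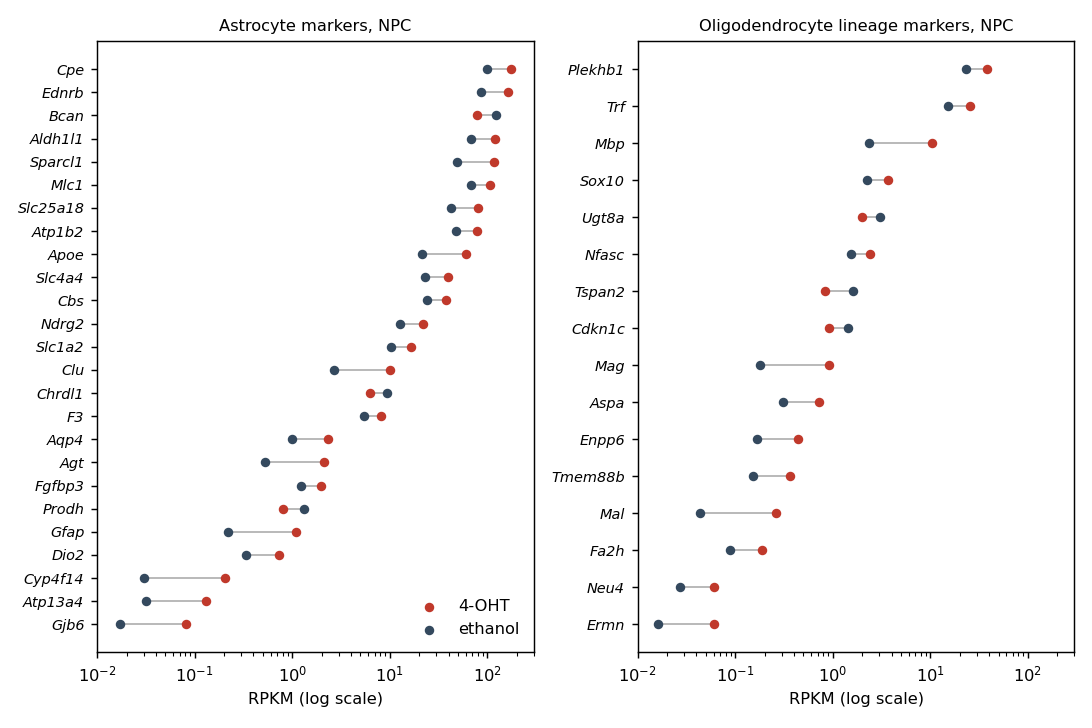
RPKM with 4-OHT and with ethanol, on a log axis, of 25 astrocyte and 16 oligodendrocyte lineage markers listed in NPC, ordered by the higher value. The 4-OHT value lies to the right in 35 of the 41 genes drawn, and Bcan, Chrdl1, Prodh, Ugt8a, Tspan2 and Cdkn1c are the exceptions.

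Level and fold ran in opposite directions across the lists as they do between Aldh1l1 and Gfap. The same holds over all listed higher genes, so the trend is not particular to the markers. Listing asks for a p under 0.05, which may take a larger fold at low level, and its part in the trend was not tested. The 13 markers under 1 RPKM in the higher arm are all higher, with a median log2 fold change of 1.89, and add up to 0.545% of the RPKM gained by the 37 higher markers. Among all listed NPC genes under 1 RPKM, 80.3% are higher, with a median of 1.24 and 1.75% of the gain of all listed higher genes. Of the 14 markers at 1 to 10 RPKM, 9 are higher, or 64.3%, with a median of 1.22. Of all listed genes of that level 58.3% are higher, with a median of 0.90. At 10 RPKM or more 15 of 16 markers are higher, with a median of 0.79, and they make up 95.5% of the gain. At that level 287 of all 821 listed genes are higher, also with a median of 0.79. They make up 82.5% of the RPKM gained by all listed higher genes. The summed level of the 25 listed astrocyte markers was 1125 RPKM with 4-OHT and 695 RPKM with ethanol, and that of the 18 listed oligodendrocyte markers was 93.6 and 54.2 RPKM in the same order.

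Pathway neighbours of each gene did not all follow it. Aldh1l1 rose with its mitochondrial counterpart Aldh1l2, while Shmt1, the thymidylate synthase gene Tyms, the folate carrier gene Slc19a1 and the purine synthesis gene Atic fell. Of 29 folate genes 8 are listed, 3 higher and 5 lower, each with a bound under 0.05, against 9.71% of protein-coding names listed and 73.8% of listed rows under the bound. Shmt1 had 14.8 RPKM with 4-OHT and 29.4 RPKM with ethanol, and Aldh1l2 had 8.93 and 5.71 RPKM in the same order. Tyms is also a gene of proliferating cells.

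The 14 intermediate filament genes include 6 that are listed, 4 higher and 2 lower, against 9.71% of protein-coding names listed and 56.6% of listed rows higher. Gfap rose with Synm, a filament linker gene, at 0.595 RPKM with 4-OHT and 0.234 RPKM with ethanol, with the neurofilament gene Nefl and with the nuclear lamin gene Lmna. The B-type lamins fell, with Lmnb1 at 92.4 RPKM under 4-OHT and 167 RPKM under ethanol and Lmnb2 at 9.80 and 20.2 RPKM. Vim and Nes, the filaments of progenitors, are not listed.

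Galactolipid and sphingolipid genes held 5 listed members of 32, against 9.71% of protein-coding names listed. Ugt8a fell with Ugcg, which joins glucose instead of galactose to ceramide, at 7.32 RPKM with 4-OHT and 11.9 RPKM with ethanol, and with the ceramide synthase gene Lass4, by -0.77 on the log2 scale in the authors' deposited table. The ceramidase gene Asah2 rose to 0.679 RPKM with 4-OHT, against 0.377 RPKM with ethanol. Fa2h, the hydroxylase that supplies hydroxylated fatty acids to the same lipids, was at 0.189 RPKM with 4-OHT and 0.0892 RPKM with ethanol and did not pass the bound. Among 23 genes of myelin inhibitors and their receptors, 4 are listed: Mag, Nfasc and the Nogo receptor homolog Rtn4rl1 rose, and Rtn4rl2 was at 0.0769 RPKM with 4-OHT and 0.199 RPKM with ethanol without passing the bound. Rtn4rl1 had 3.95 RPKM with 4-OHT and 2.10 RPKM with ethanol. Beside these 4 of 23, 9.71% of protein-coding names are listed and 56.6% of listed rows are higher.

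Of 58 genes of glial fate signalling 9 are listed in NPC, with 6 higher and 3 lower. For this list and the reactive list below, the shares over all genes are 9.71% of protein-coding names listed and 56.6% of listed rows higher. The cytokine gene Lif, a STAT activator, rose to 1.03 RPKM with 4-OHT, against 0.391 RPKM with ethanol, and its family receptor gene Osmr to 0.158 RPKM, against 0.0518 RPKM. Id1, a target of bone morphogenetic proteins, had 8.47 RPKM with 4-OHT and 4.11 RPKM with ethanol. In the Notch pathway the ligand gene Jag1 and the receptor gene Notch3 rose, at 0.77 and 0.69 on the log2 scale of the authors' deposited table. The effector gene Hes5 and the ligand gene Dll3 fell, at -1.73 and -0.62 in the authors' deposited table. Dnmt1, the maintenance DNA methyltransferase, fell to 44.8 RPKM with 4-OHT, against 71.0 RPKM with ethanol. Smad9 was at 0.282 RPKM with 4-OHT and 0.178 RPKM with ethanol and did not pass the bound. Stat3, Socs3, Nfia and Sox9 are not listed. Stat3 and Socs3 also belong to the list of reactive astrocyte genes, of which 13 of 39 are listed, 11 higher and 2 lower, led in level among the higher ones by ceruloplasmin, Cp, at 5.22 RPKM with 4-OHT and 1.65 RPKM with ethanol. Ggta1 had 2.31 RPKM with 4-OHT and 0.547 RPKM with ethanol. Tm4sf1 had 1.62 and 0.635 RPKM in the same order, and Serpina3n had 1.26 and 0.657 RPKM. The members that fell were Fkbp5, a glucocorticoid target, at 11.2 RPKM with 4-OHT and 18.6 RPKM with ethanol, and the glycosyltransferase gene B3gnt5 at 4.39 and 8.02 RPKM. The median log2 fold change of the reactive list is 1.47, at a median level of 1.12 RPKM in the higher arm, with 6 of the 13 under 1 RPKM. Its summed level was 30.1 RPKM with 4-OHT and 31.6 RPKM with ethanol. That of the 9 listed signalling genes was 84.0 and 109 RPKM in the same order. Neither sum was thus higher with 4-OHT, although most listed members of both lists are higher. In each list the gene of the highest level fell, Fkbp5 among the reactive and Dnmt1 among the signalling genes. The sums thus rest largely on these genes and do not describe the lists as a whole.

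Markers of other cell types moved beside the glial genes, and their part in the values above was not tested. Of 29 neuron markers 9 are listed, 8 higher and 1 lower, and 6 of the 9 pass the bound, against 9.71% of protein-coding names listed, 56.6% of listed rows higher and 73.8% past the bound. Their summed levels were 24.7 RPKM with 4-OHT and 13.4 RPKM with ethanol. The neuronal tubulin gene Tubb3 had 9.59 RPKM with 4-OHT and 4.81 RPKM with ethanol, and Elavl3 had 5.90 and 3.45 RPKM. Camk2a and Gria1 rose to 3.67 and 1.73 RPKM with 4-OHT, against 2.16 and 0.188 RPKM with ethanol, while Snap25 was at 0.770 RPKM with 4-OHT and 1.30 RPKM with ethanol and did not pass the bound. Among 12 ependymal and choroid plexus markers 2 are listed, Foxj1, a regulator of motile cilia, at 6.84 RPKM with 4-OHT and 2.73 RPKM with ethanol, and Ccdc153 at 0.412 and 0.144 RPKM, which did not pass the bound. Of 12 endothelial markers 2 are listed, Tek and Flt1, both under 0.2 RPKM in either arm and short of the bound. The 17 microglia and macrophage markers include 1 that is listed, Cd14, at 1.12 RPKM with 4-OHT and 0.569 RPKM with ethanol, short of the bound. Of 16 fibroblast and mural markers 2 are listed, with Fbln1 falling to 9.44 RPKM with 4-OHT, against 16.4 RPKM with ethanol, and Postn at 0.396 and 0.214 RPKM, short of the bound. None of these listed markers is at 0 in either arm, and the markers that are not listed have no value in the tables.

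In MEF neither arm has a value for Gfap, Aldh1l1, Mag or Ugt8a. That table lists 111 genes, and a gene missing from it may have been untested, changed by less than 1.5-fold or had a p of 0.05 or more, so no statement on level or change in MEF can be made for the 4 genes. Of the 100 glial markers 1 is listed in MEF, Enpp2, which encodes the lysophospholipase autotaxin and is also made by fibroblasts. Of all protein-coding names 0.47% are listed in MEF, so a count of 1 in 100 is near that share. Enpp2 stood at 5.48 RPKM with 4-OHT and 12.1 RPKM with ethanol, and it is not listed in NPC. In the authors' deposited table its log2 change is -1.15 (Cuffdiff p = 0.0166), which did not pass the bound. Of the other lists, the MEF table holds Ptx3, at 125 RPKM with 4-OHT and 241 RPKM with ethanol, Jag1, at 8.78 and 5.15 RPKM, Ptprz1, at 2.85 and 1.69 RPKM, Myh11, at 17.2 and 8.25 RPKM, and Rgs5, at 7.73 and 3.76 RPKM, each short of the bound. The difference between the cell types was not tested for the 4 genes, since it needs a value in both.

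None of the 4 genes has a splicing event among the 255 listed in NPC or the 71 listed in MEF. Of the 369 genes in all lists, 3 have an event in NPC and 0 in MEF, and of the 21924 protein-coding names 0.926% have one in NPC and 0.228% in MEF. The count in NPC is near that share. Nfib, which encodes a nuclear factor I protein known to act on Gfap and other glial genes, has a skipped exon of 89 bases at 81956207 to 81956295 of chromosome 4 in mm9, listed in 2 pairs of libraries. By the lengths of the exon and the one before it, this is exon 11 of 12 in the GENCODE transcripts Nfib-201, Nfib-205 and Nfib-206. The deposited exon after it has 731 bases, which is the length in Nfib-204, where the skipped exon is 9 of 10, and in none of these 3 transcripts. Under one pair code 0 of 9 reads included the exon with 4-OHT, which allows a share of up to 33.3%, and 27 of 38 did with ethanol (Wilson 95% interval 55.2% to 83.0%). Under the other listed pair code 4 of 16 reads included it with 4-OHT (Wilson 95% interval 10.2% to 49.5%) and 31 of 42 with ethanol (58.9% to 84.7%). The deposited inclusion levels are 0 and 0.098 with 4-OHT and 0.443 and 0.478 with ethanol, with no overlap between the arms over the 2 listed pairs. Where reads included the exon they lie below the read shares, and their scaling is not given in the file headers. Events enter the table for such a difference, and the remaining pair is not listed, so these values describe the listed pairs. Nfib is not listed for expression. Mtfmt, the formyltransferase of mitochondrial initiator tRNA in the folate list, has a retained intron of 1164 bases, also listed in 2 pairs. Its inclusion levels are 0.670 and 0.580 with 4-OHT and 0.278 and 0.175 with ethanol. Inclusion reads make up 98.5% and 97.8% with 4-OHT and 92.7% and 87.5% with ethanol. Reads that exclude the intron are few, 8 and 6 with 4-OHT and 12 and 8 with ethanol. Intervals here cover counting error alone, since amplified reads are not independent molecules.

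**Figure D4:**
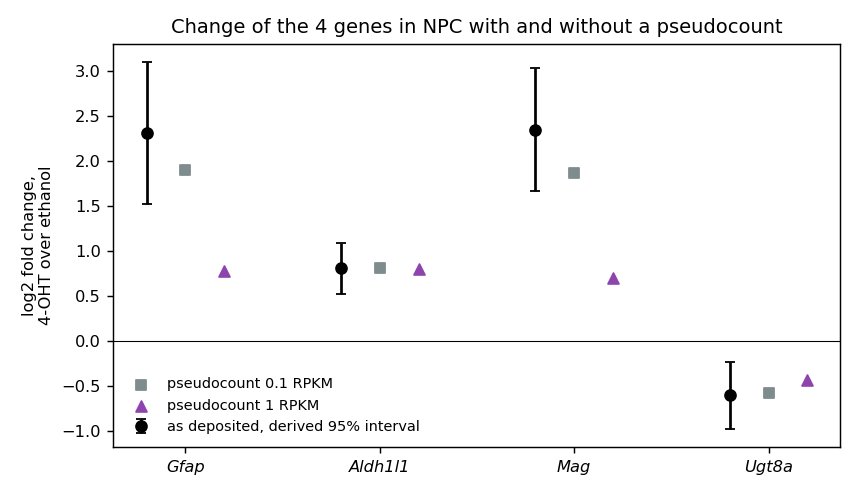
Log2 fold change of 4-OHT over ethanol for the 4 genes in NPC as deposited, with the 95% interval derived from the Cuffdiff p (black), and with 0.1 or 1 RPKM added to both arms. The values of Gfap and Mag are 1.90 and 1.86 with 0.1 RPKM added. They drop to 0.78 and 0.70 with 1 RPKM added, near the 0.80 of Aldh1l1, which hardly moves.

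A constant was added to both arms before the ratio was taken, since the folds of Gfap and Mag have a low denominator. With 0.1 RPKM added the log2 fold changes are 1.90 for Gfap, 1.86 for Mag, 0.81 for Aldh1l1 and -0.58 for Ugt8a. The lead of Gfap and Mag over Aldh1l1 is then kept. With 1 RPKM added they are 0.80 for Aldh1l1, 0.78 for Gfap, 0.70 for Mag and -0.43 for Ugt8a, and that lead is lost. The same constant added to both arms cannot change a direction, so the directions were not tested by this step. The lead thus depends on the constant, and 1 RPKM exceeds the ethanol level of Gfap and Mag.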

How the data were processed

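RNA libraries of 12 samples (TruSeq RNA v2, per the labels' protocols) were summarised by the authors in 1 expression and 1 splicing table for each cell type. Per the submitters' processing notes, base calls came from CASAVA 1.8, TopHat2 2.03 with Bowtie2 2.0.0.6 placed the reads on mm9, and Cuffdiff 2.02 compared the arms. The RPKM value of each arm, the log2 fold change and the unadjusted p-value were deposited by the authors, per the file headers. The splicing tables hold, per the file headers, the count of inclusion and exclusion reads and the inclusion level as a fraction, under pair codes that match no label. No source used here states the library totals, and the depth is unknown.

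Deposited log2 fold changes differed from log2 ratios of the RPKM values by at most 1.2e-05. Standard errors and 95% intervals were derived from the deposited p under a normal distribution, and the Benjamini-Hochberg bound took all 55341 gene names of GENCODE M21 as tested, both checked on simulated data. No test over libraries or gene lists was run. The 4 genes and the 14 gene lists were chosen with earlier results of these data known. Named are the 4 genes, listed glial markers, up to 4 genes per direction and list by level, and 3 nearest genes per member. Exceptions, as genes chosen after their values were seen, are the remaining listed members of the smaller lists and genes named as not listed. Some listed members, although counted with their lists, are not reported here by name. Starts in the splicing event names count from 0, by the exon lengths of Nfib and Mtfmt, and were written from 1. Antisense or overlapping annotations exist for Gfap (Gm26668) and Aldh1l1 (Gm15756, Gm44236, Gm45901), and strand-specific counting is not stated. Whether replicates came from separate cultures is not labelled, so the p-values may measure technical spread. Python 3.11.15, pandas 2.3.3 and SciPy 1.17.1 were used.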

Additional observations from a re-analysis of the deposited data

How the results depend on the processing

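The direction of the 4 genes in NPC was not tested, since the same constant added to both arms cannot change it. With 1 RPKM added to both arms the log2 fold change moved to 0.78 for Gfap and 0.70 for Mag, out of their derived intervals, because the added value exceeds the ethanol level of both; the other values with 0.1 or 1 RPKM added stayed within them. With the listed genes alone counted as tested, all 4 genes were under an adjusted p of 0.05. That outcome was fixed by the listing, since the largest Cuffdiff p listed in NPC is 0.0497 and every listed gene passes. With a Bonferroni correction over all annotated gene names 3 of the 4 genes passed. Of the 3 members listed as higher, 1 was left at a limit of 5 RPKM for the higher arm. Of the 37 glial markers listed as higher, 24 were left at 1 RPKM or more, 18 at 5 RPKM or more and 21 beyond a log2 change of 1. Without the 4 genes described it was 34. Beyond a log2 change of 1, 0 markers are lower, but of all 861 listed NPC genes there 79.0% are higher too. At 1 RPKM or more 80.0% of the 30 listed glial markers are higher, against 47.3% of all listed NPC genes. At 5 RPKM or more 90.0% of the 20 listed glial markers are higher, against 39.5% of all listed NPC genes. No paired analysis was possible because the expression tables hold 1 value per arm, and for the same reason no replicate could be left out. Levels near 0.1 RPKM rest on an unknown number of reads.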
